A study of Homo sapiens with 12 samples.

Results

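The 10 genes described here encode the enzymes that build purine nucleotides and return the base hypoxanthine to them: PPAT, GART, PFAS, PAICS, ADSL and ATIC of the route to inosine monophosphate (IMP), IMPDH1, IMPDH2 and GMPS of the branch from IMP to guanosine monophosphate (GMP), and HPRT1 of salvage. They were taken by symbol, each symbol matching 1 row of the 61541 genes in the count table, and all 10 were among the 16768 genes tested. RNA had been sequenced from 12 libraries labelled A549, a human lung adenocarcinoma cell line, with 3 libraries in each of 4 groups. The control cells carried the non-targeting guide gNTC1 with Cas9, and the knockout cells (TS-KO) carried Cas9 directed at TYMS, the gene of thymidylate synthase. Each kind was sampled alone or from a co-culture, and all were taken 14 days post transduction, with no drug treatment in any group. The study's design text names parental A549 as the cells with which the knockout was co-cultured. Whether the partner cells were removed before extraction, what the partner of the control cells was, and whether a knockout was 1 clone are not given in the labels.

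Purine synthesis assembles the ring on a ribose phosphate supplied as phosphoribosyl pyrophosphate (PRPP). PPAT commits PRPP to the route, and GART and ATIC each take a one-carbon unit from 10-formyltetrahydrofolate, so the route shares the folate pool with thymidylate synthase. IMP is then turned either into AMP, where ADSL acts again, or through IMPDH and GMPS into GMP, while HPRT1 bypasses the route by joining PRPP to hypoxanthine or guanine.

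PPAT and PAICS lie head to head on chromosome 4, so the DNA that separates their starts is shown. Their log2 levels ran together over the 6 control and the 6 knockout libraries, with Pearson r of 0.929 and 0.991. So did those of PPAT and GMPS, which lies on chromosome 3, at 0.954 and 0.996, so this is not particular to the pair. No such relation passed an adjusted p under 0.05 by exact permutation. The transcripts of PPAT, PAICS and GMPS are all of low GC content, along which the libraries also differed. In GENCODE 29 (GRCh38), PPAT occupies chr4:56393362-56435615 on the minus strand and PAICS chr4:56435741-56464579 on the plus strand. The 125 bases between their starts, chr4:56435616-56435740, are given on the plus strand of GRCh38.p14 (RefSeq), with GC boxes (GGGCGG on either strand) in capitals. The motif CACGTG, the E-box that MYC and related factors can bind, occurs in the first exon of PAICS, beginning 40 bases after its RefSeq start. It occurs at 2 sites of ATIC, beginning 46 bases before and 29 bases after the RefSeq start of that gene, both downstream of the earlier start that GENCODE 29 gives. The 3 sites are given with the E-box in capitals.
PPAT-PAICS: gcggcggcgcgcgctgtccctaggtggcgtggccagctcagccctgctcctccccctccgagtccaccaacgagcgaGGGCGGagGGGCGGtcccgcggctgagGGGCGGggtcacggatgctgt
PAICS E-box: ctgtatttgctgCACGTGgaaa
ATIC upstream E-box: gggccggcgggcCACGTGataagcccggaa
ATIC downstream E-box: ctcctacctgcgCACGTGgtgccgccgctg

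The PAICS site lies at chr4:56435780-56435801 and the ATIC sites at chr2:215312001-215312030 and chr2:215312076-215312105, all on the plus strand. The stretch between PPAT and PAICS held 3 GC boxes and was 76% G and C. Promoter windows of 300 bases (250 before and 50 after a start) were found in the RefSeq table for 8 of the 10 genes, all but ADSL and IMPDH2, with 12 windows in all. The E-box, a palindrome that reads alike on both strands, was present in 3 of these 12 windows (of PPAT, PAICS and ATIC, the first 2 through the same site) and in 7.26% of the 35116 windows of all genes. GC boxes were found in 9 of the 12 windows, against 45% of all windows, and CCAAT boxes (CCAAT on either strand) in 3, all of GART, against 34.6%. The windows of PPAT and PAICS overlap and those of GART partly do, so the 12 are not independent. These matches describe letters in the windows and no binding was measured.

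Library totals ran from 14921371 to 35723762 counts. The labels do not say that the 3 libraries of a group came from separate cultures, so the p-values measure only the spread between these libraries, which may be technical. TYMS, the targeted gene, stood at 90.3 to 101 CPM (a gene's counts scaled to the size of its library, with TMM factors) in the 6 libraries labelled control, 20.3 to 21.4 CPM in the lone knockout and 10.7 to 11.4 CPM in the co-cultured knockout. CDKN2A, CDKN2B and MTAP, which A549 is known to have lost by deletion, summed to 122 to 166 CPM in the libraries labelled control and to 0.302 to 0.746 CPM in those labelled knockout. The libraries labelled control thus go against the known deletion of the line, and those labelled knockout do not. EPCAM, an epithelial surface protein, was at 94.4 to 119.5 CPM in the control libraries and at 0.149 to 0.913 CPM in the knockout libraries. Of the epithelial list (EPCAM, CDH1, KRT7, KRT8, KRT18, KRT19), 4 of 6 were called lower in the lone knockout and 1, KRT7, higher. KRT7 had 5952 against 1910 CPM (edgeR adjusted p = 3.35e-04). Of 8 NRF2 target genes, 7 were called higher there and 0 lower, where 28% and 28.6% of all genes were. In every comparison of knockout with control below, the guide and the background of the cells cannot be told apart, and no subset of libraries separates them. Comparisons of co-culture with alone lie within 1 label. Epithelial keratins were high in all groups, and the alveolar list (NKX2-1, NAPSA, SFTPA1, SFTPB, SFTPC) summed to at most 2.37 CPM. The blood list (PTPRC, CD3E, CD14, CD68, HBB) summed to at most 7.84 CPM, with CD3E at 0 counts in all libraries and PTPRC at 0 or 1. Its 2 tested members, CD14 and CD68, were both called higher in the knockout when co-cultured, at 3.25 against 0.866 CPM (edgeR adjusted p = 0.00562) and 2.98 against 0.893 CPM (edgeR adjusted p = 0.00637). In the lone control CD14 had a mean of 4.76 CPM and CD68 one of 0.1345 CPM.

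Within every group the libraries also differed along the GC content of transcripts. The deviation of a library from its group mean ran with transcript GC with a Spearman rho between -0.861 (co-cultured knockout R3) and 0.845 (co-cultured knockout R2) over 8467 genes, a value across genes and not across replicates. These 8467 genes had a GC value and a mean of at least 10 CPM over the 12 libraries, and every rho in this paragraph rests on them. PPAT, GMPS, HPRT1 and PAICS have transcripts of low GC content, at percentiles 1.5, 9.6, 14.5 and 16.2 of these genes, and IMPDH1 sits at percentile 86.2. Each difference of the 10 genes was therefore also fitted with a GC correction. It gave the model, as offsets, a smooth on GC content of each library's deviation from the mean of all 12 libraries. It thus also takes out GC trends between groups. There, log2 fold changes ran with GC at rho -0.506 between the lone groups and -0.176 between the co-cultures. For co-culture against alone rho was 0.447 in the knockout and -0.663 in the control, and for the interaction 0.65. No corrected values are given for other genes.

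Levels between genes were compared per kb of exon. IMPDH2 was the highest of the 10 in all 4 groups and PPAT the lowest. In the lone control, IMPDH2 had 226 ± 45.5 CPM per kb (SD, n = 3), followed by IMPDH1 at 61.8 ± 11.3 and ATIC at 42.3 ± 3.99. HPRT1, GART and PFAS came next at 22.0, 21.3 and 20.3 CPM per kb and did not differ from one another beyond their spread. PAICS had 11.3 ± 2.94 CPM per kb, GMPS 5.15 ± 1.27, ADSL 3.42 ± 0.136 and PPAT 2.10 ± 0.692. Among the knockout libraries the order below IMPDH2 changed. ATIC ranked above IMPDH1 in the lone knockout, at 53.9 ± 5.11 against 39.2 ± 5.82 CPM per kb. IMPDH1 and HPRT1 were within 1 SD of each other there, and so were PAICS and GART. In the co-cultured knockout ATIC, IMPDH1 and HPRT1, at 48.6, 42.1 and 38.2 CPM per kb, were each within 1 SD of the next. Summed over the 6 enzymes of the route to IMP, the level was 101 ± 3.80 CPM per kb in the lone control, 109 ± 10.3 in the co-cultured control, 120 ± 6.34 in the lone knockout and 99.3 ± 0.717 in the co-cultured knockout.

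**Figure D1:**
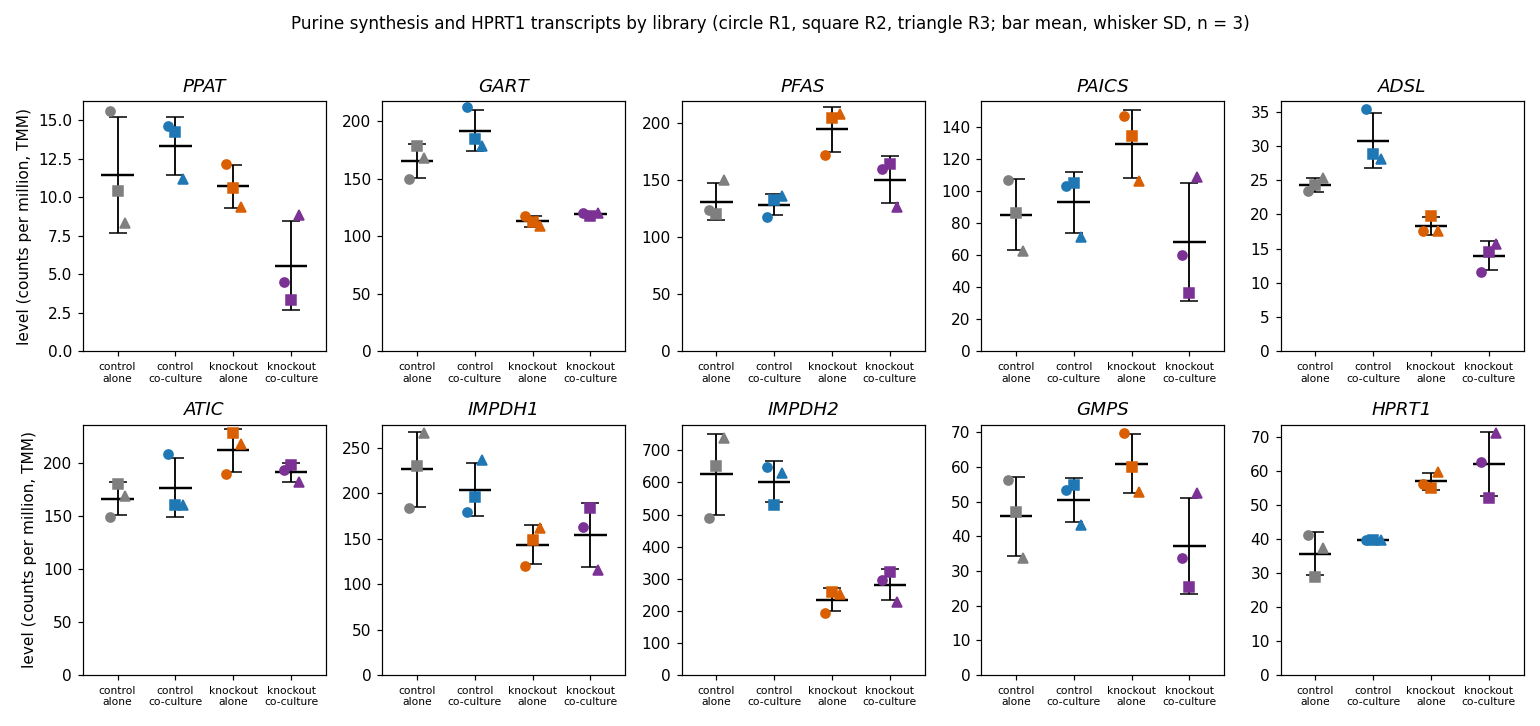
Level of each of the 10 genes in every library, in CPM after TMM scaling, by group. Points are libraries, horizontal bars means and whiskers SD (n = 3). IMPDH2 was at most 319.9 in all knockout libraries and at least 489.5 in all control libraries, while PPAT, PAICS and GMPS spread widely within the co-cultured knockout.

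The first comparison asked how the lone knockout libraries differed from the lone control libraries. The GMP branch enzymes IMPDH2 and IMPDH1 were lower, as were GART and ADSL, while PFAS and HPRT1 were higher. In the test across all genes (edgeR quasi-likelihood, Benjamini-Hochberg adjusted p under 0.05), 6 of the 10 were called, 2 higher and 4 lower. Of all genes tested 56.6% were called, 28% higher and 28.6% lower, so a share of 6 in 10 lies near the background. The median log2 fold change of the 10 was 0.13, against 0.09 over all genes.

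IMPDH2, the main isozyme of the step that commits IMP to guanine nucleotides in dividing cells, lies at chr3:49024325-49029408 on the minus strand. The lone control libraries had 490, 651 and 738 CPM and the lone knockout libraries 193, 258 and 252 CPM. The groups were far apart, and the gene was 2.67-fold lower in the knockout (log2 -1.42 ± 0.19 SE, edgeR adjusted p = 4.53e-05). Between the co-cultures it was 2.14-fold lower, at 648, 529 and 631 CPM in the control and 297, 320 and 229 CPM in the knockout (log2 -1.10 ± 0.19, edgeR adjusted p = 3.82e-04). These 2 differences share no library.

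IMPDH1 encodes the other isozyme, at chr7:128392277-128410252 on the minus strand. It stood at 183, 230 and 266 CPM in the lone control and at 120, 149 and 162 CPM in the lone knockout, which did not overlap. The difference was log2 -0.66 ± 0.20 (edgeR adjusted p = 0.0134). It was no longer called when the lone knockout library R1 was left out (log2 -0.55) and was -0.03 with the GC correction. Because IMPDH2 differed more than IMPDH1, IMPDH1 made up a larger share of the pair in the knockout. Per kb of exon that share was 22.1, 21.1 and 21.4% in the lone control libraries and 32.1, 30.5 and 32.7% in the lone knockout libraries. In co-culture it was 17.3, 21.9 and 22.1% in the control and 29.4, 30.4 and 27.6% in the knockout. All 6 knockout libraries lay above all 6 control libraries, and the means were 21.6 ± 0.505, 20.5 ± 2.7, 31.7 ± 1.14 and 29.1 ± 1.41% (SD, n = 3) in that order. This share is a description and was not tested.

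**Figure D2:**
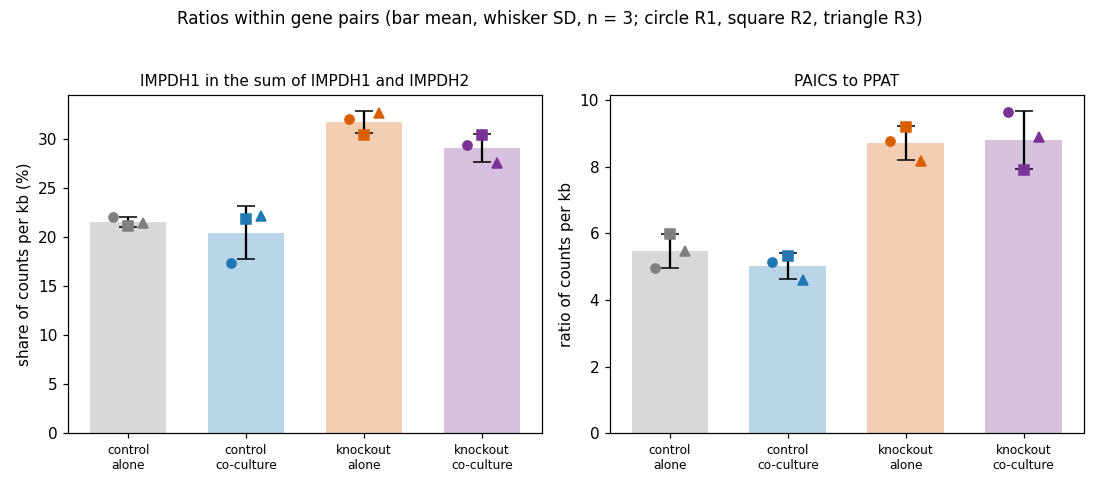
Left, share of IMPDH1 in the sum of IMPDH1 and IMPDH2 (percent of counts per kb of exon). Right, ratio of PAICS to PPAT (counts per kb of exon). Points are libraries, bars means and whiskers SD (n = 3). The 6 knockout libraries lie above the 6 control libraries in both panels, at 27.6 to 32.7% against 17.3 to 22.1% on the left and 7.91 to 9.64 against 4.6 to 5.99 on the right.

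GART, a protein that carries out several early steps including the first formyl transfer, lies at chr21:33503931-33543491 on the minus strand. Its level was 149, 178 and 168 CPM in the lone control and 117.5, 113 and 108 CPM in the lone knockout. The gene was 1.46-fold lower in the knockout (log2 -0.55 ± 0.12, edgeR adjusted p = 0.00182), and the difference was -0.97 with the GC correction. The co-cultured groups stood at 212, 184 and 179 CPM in the control and 121, 117 and 120 CPM in the knockout, a 1.61-fold difference (log2 -0.68 ± 0.12, edgeR adjusted p = 4.14e-04). Whether this exceeded the lone difference was tested as the interaction, at log2 -0.13 ± 0.17 (edgeR adjusted p = 0.66), and was not called. The exons of GART overlap those of SON on the other strand by 275 bases. The strand setting of the counting is not given in the sources used here, so some reads of one may be counted for the other. Exons of ADSL overlap those of the annotated gene AL022238.4 by 1344 bases on the same strand. Those of IMPDH2 overlap AC137630.3 by 93 bases and those of PPAT overlap AC068620.2 by 121 bases, each on the other strand. These neighbours held 23, 49 and 0 counts over all 12 libraries, in that order. How reads in an overlap were counted is not given in the sources used here. The low counts therefore do not show that no reads were lost, and the level of ADSL may be too low.

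ADSL, the lyase that acts both on the route to IMP and on the way to AMP, lies at chr22:40346500-40390463 on the plus strand. The lone control libraries had 23.4, 24.3 and 25.3 CPM and the lone knockout libraries 17.6, 19.8 and 17.6 CPM. The groups did not overlap, and the gene was called 1.33-fold lower (log2 -0.41 ± 0.16, edgeR adjusted p = 0.0415). That call was lost on leaving out any library of the 2 groups other than lone control R1, with log2 values from -0.47 to -0.38. It was also lost with library sizes alone (-0.25), with no filter (-0.42) and with the replicate block (-0.41), and it was kept with the GC correction, at -0.70. In co-culture the difference was larger, with 35.4, 28.9 and 28.1 CPM in the control and 11.6, 14.6 and 15.7 CPM in the knockout. It came to 2.20-fold lower (log2 -1.14 ± 0.16, edgeR adjusted p = 5.80e-05). Whether the co-culture difference exceeded the lone one was tested as the interaction, at log2 -0.73 ± 0.22 with an edgeR adjusted p of 0.126, and was not called.

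PFAS, the glutamine-dependent synthase of the fourth step, lies at chr17:8247618-8270491 on the plus strand. It read 123.5, 120 and 150 CPM in the lone control and 172, 204 and 208 CPM in the lone knockout. The knockout libraries were all higher, by 1.48-fold (log2 0.57 ± 0.15, edgeR adjusted p = 0.00529), and the difference was 1.04 with the GC correction. Between the co-cultures the groups overlapped, at 118, 132 and 136 CPM and 160, 164 and 126 CPM, and the difference was not called (log2 0.23 ± 0.15, edgeR adjusted p = 0.223).

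HPRT1, the salvage enzyme, lies at chrX:134460153-134520513 on the plus strand. Its libraries stood at 41.3, 28.8 and 37.3 CPM in the lone control and 56.2, 55.0 and 59.9 CPM in the lone knockout. The groups were separate, and the knockout was 1.59-fold higher (log2 0.67 ± 0.15, edgeR adjusted p = 0.00227). With the GC correction the lone difference was 0.13 and was not called. In co-culture the control had 39.9, 39.9 and 39.8 CPM and the knockout 62.8, 52.3 and 71.2 CPM, a 1.56-fold difference (log2 0.64 ± 0.15, edgeR adjusted p = 0.00351) that was 0.66 with the correction and still called.

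ATIC, which carries out the last 2 steps to IMP including the other formyl transfer, lies at chr2:215311817-215349773 on the plus strand. Its lone control libraries had 149, 180 and 169 CPM and its lone knockout libraries 190, 228 and 218 CPM. These groups did not overlap, but the difference missed the threshold (log2 0.35 ± 0.14, edgeR adjusted p = 0.0514) and was 0.082 with the GC correction. The co-cultured groups overlapped, at 209, 161 and 160 CPM in the control and 193, 198 and 182 CPM in the knockout (log2 0.11 ± 0.14).

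**Figure D3:**
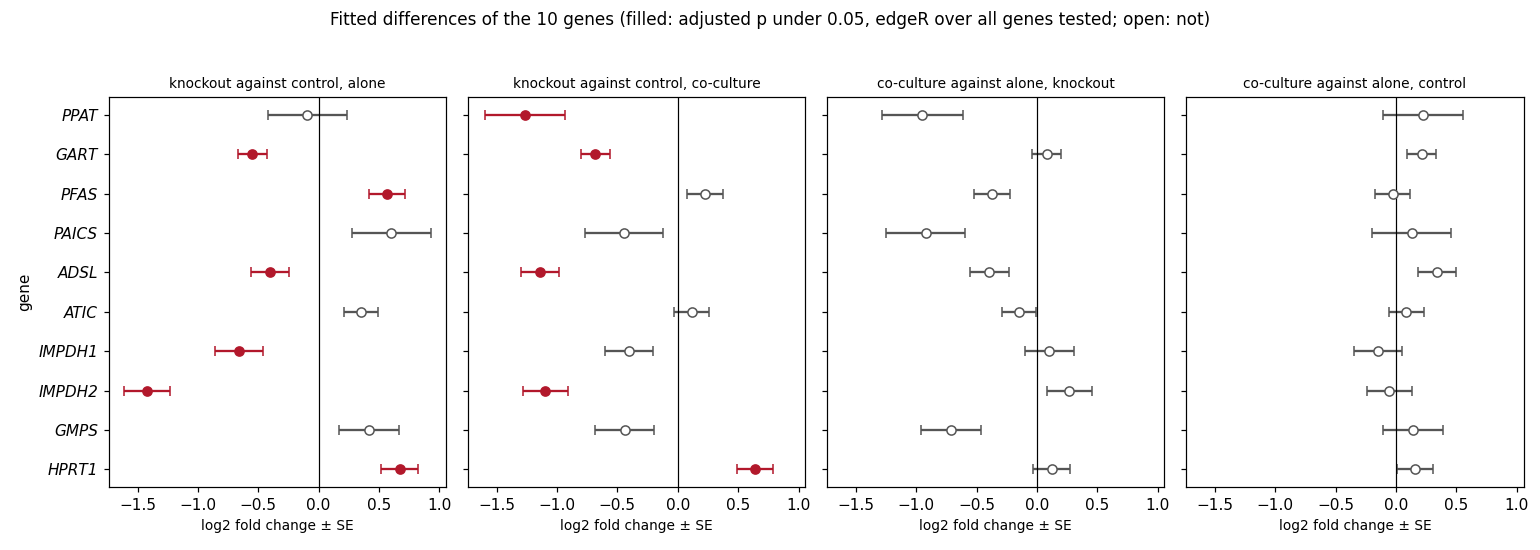
Fitted log2 fold change ± SE of the 10 genes in 4 comparisons. Filled points passed an adjusted p under 0.05 and open points did not. IMPDH2, GART and ADSL were lower in the knockout, alone and in co-culture, and HPRT1 was higher in both. No gene was called for co-culture against alone in either kind of cell.

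The second comparison asked what differed in the knockout cells between co-culture and growth alone. None of the 10 genes was called by edgeR, while 11.4% of all genes were, 5.97% higher and 5.4% lower. At an unadjusted p under 0.05 there were 5 (PPAT, PAICS, GMPS, PFAS and ADSL), all lower in co-culture, beside 30.1% of all genes at that level. DESeq2 called 3 (PPAT, PAICS and GMPS, all lower), beside 20% of all genes. The median log2 fold change of the 10 was -0.26, and that of all genes was 0.01.

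PPAT, the amidotransferase that commits PRPP to the route, had 12.2, 10.6 and 9.37 CPM in the lone knockout and 4.53, 3.31 and 8.84 CPM in the co-cultured knockout. The co-cultured libraries R1 and R2 were well below the others and R3 was close to them. The difference was log2 -0.95 ± 0.33 (edgeR adjusted p = 0.0818). PAICS, a protein with the carboxylase and ligase activities of the middle of the route, had 147, 135 and 106 CPM alone and 60.3, 36.2 and 109 CPM in co-culture, where R3 again lay within the range of the lone libraries (log2 -0.92 ± 0.33, edgeR adjusted p = 0.0853). GMPS, the amidating enzyme that completes GMP, lies at chr3:155870536-155944026 on the plus strand. It had 69.9, 60.1 and 52.9 CPM alone and 33.8, 25.4 and 52.5 CPM in co-culture (log2 -0.71 ± 0.25, edgeR adjusted p = 0.0799).

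In these 3 genes the same library, co-cultured knockout R3, stood apart from R1 and R2. Without it, 4 genes were called lower in co-culture, namely PPAT at log2 -1.46, PAICS at -1.42, GMPS at -1.04 and ADSL at -0.48, and 33.4% of all genes were called. R3 was also the library with the most negative GC trend, and R2 the one with the most positive. With the GC correction the difference of PPAT was -0.33 and that of GMPS -0.21, neither called, and that of PAICS was -0.60 and called. PFAS, at 160, 164 and 126 CPM in co-culture, and HPRT1 were called as well under the correction, at -0.59 and 0.57. Under it 30% of all genes were called.

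**Figure D4:**
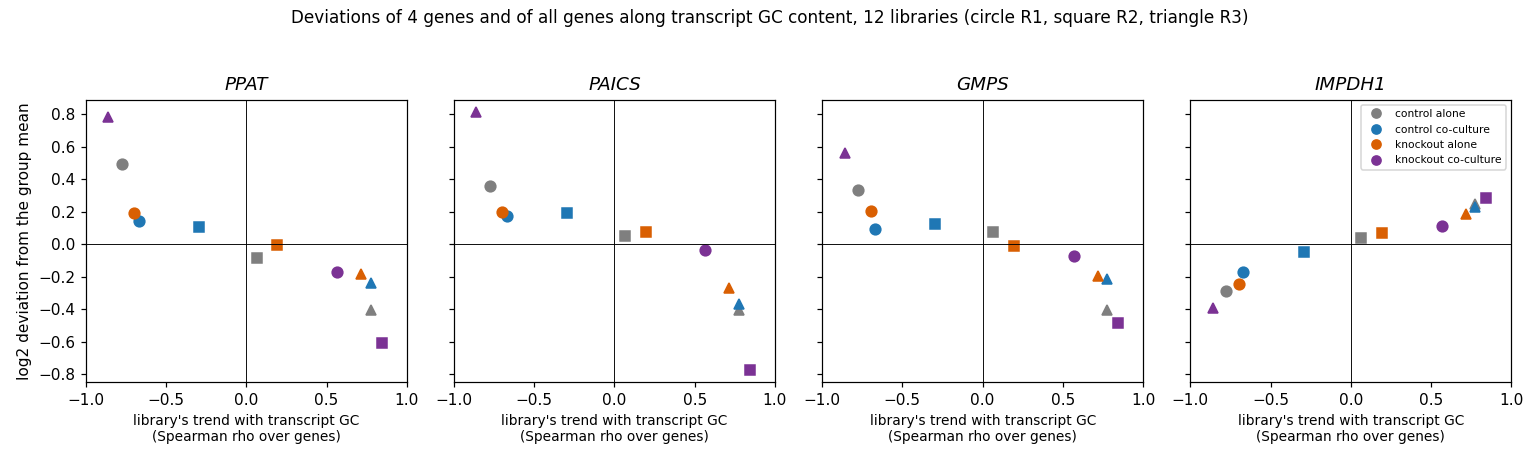
For PPAT, PAICS, GMPS and IMPDH1, the log2 deviation of each library from its group mean (vertical) against the trend of that library's deviations with transcript GC content over 8467 genes (horizontal, Spearman rho). Colours are groups and symbols replicate numbers. PPAT, PAICS and GMPS are high where the trend is negative, up to 0.78, 0.81 and 0.56 in co-cultured knockout R3, and IMPDH1 is low there at -0.39.

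Part of the proliferation list also differed in this comparison. Of MKI67, TOP2A, PCNA, MCM2, MCM6, CCNB1, CDK1 and RRM2, 4 of 8 were called lower in the co-cultured knockout (MKI67, TOP2A, MCM6 and CCNB1) and none higher, beside 5.4% and 5.97% of all genes. The list did not go 1 way: RRM2 was at log2 0.30 ± 0.14, PCNA at 0.28 ± 0.16, CDK1 at 0.14 ± 0.31 and MCM2 at -0.27 ± 0.21, none of them called. The list summed to 980 to 1019 CPM in the lone knockout and 678 to 877 CPM in the co-cultured knockout, and its part in the values of PPAT, PAICS and GMPS, none of them called, was not tested. CD14 and CD68 were higher in the same comparison, and their part was not tested either. EPCAM stood at no more than 0.517 CPM in the co-cultured knockout libraries. None of the libraries is labelled as parental cells, and the presence of partner cells was not tested. In bulk RNA, fewer cells of a type and less RNA per cell cannot be told apart.

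PFAS was at log2 -0.37 ± 0.15 (edgeR adjusted p = 0.112) and ADSL at -0.39 ± 0.16 (edgeR adjusted p = 0.117), each with all co-cultured libraries below all lone ones. The other 5 genes were not called either, and their libraries overlapped. GART had 121, 117 and 120 CPM in co-culture and 117.5, 113 and 108 CPM alone (log2 0.08 ± 0.12). IMPDH2 was at log2 0.27 ± 0.19 and IMPDH1 at 0.10 ± 0.20, ATIC at -0.15 ± 0.14 and HPRT1 at 0.12 ± 0.15.

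The third comparison was between both kinds of cell in co-culture. Here 5 of the 10 genes were called, 1 higher (HPRT1) and 4 lower (PPAT, GART, ADSL and IMPDH2), with 49.4% of all genes called, 24.1% higher and 25.3% lower. The share again lies near the background. The median was log2 -0.44 for the 10 genes and -0.02 for all genes. This comparison shares the co-cultured knockout libraries with the one before it.

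PPAT was the gene called here and not between the lone groups. The co-cultured control had 14.6, 14.2 and 11.2 CPM, above every co-cultured knockout library (4.53, 3.31 and 8.84 CPM), and the knockout was 2.40-fold lower (log2 -1.26 ± 0.33, edgeR adjusted p = 0.00685). The lone groups overlapped, with 15.6, 10.4 and 8.31 CPM in the control, at log2 -0.09 ± 0.33 (edgeR adjusted p = 0.824). With the GC correction PPAT was lower and called in both settings, at -1.31 in co-culture and -0.74 alone. PAICS, by contrast, was 107, 86.1 and 62.7 CPM in the lone control against 147, 135 and 106 CPM in the lone knockout, a difference that was not called (log2 0.60 ± 0.33, edgeR adjusted p = 0.131) and was 0.096 with the correction. Between the co-cultures it was log2 -0.45 ± 0.33, and GMPS was -0.44 ± 0.25, neither called. The correction gave -0.54 and -0.45, and both were then called along with PFAS and IMPDH1, so that 9 of the 10 genes were, beside 63.3% of all genes.

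The ratio of PAICS to PPAT differed between the labels. Per kb of exon it was 4.95, 5.99 and 5.46 in the lone control and 8.77, 9.19 and 8.19 in the lone knockout. In co-culture it was 5.13, 5.33 and 4.6 in the control and 9.64, 7.91 and 8.89 in the knockout. The mean ratios were 5.47 ± 0.516, 5.02 ± 0.379, 8.72 ± 0.503 and 8.81 ± 0.866 (SD, n = 3) in the lone control, the control in co-culture, the lone knockout and the knockout in co-culture, so the 2 knockout groups overlapped in this ratio although PPAT and PAICS themselves were at lower mean levels in co-culture. This ratio was chosen after its values were seen and was not tested.

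Among all tested genes outside the 10, those whose log2 CPM ran most like PPAT over the 12 libraries were RANBP9 (Pearson r 0.99), TBL1XR1 (0.988), TOP1 (0.986), PHLDB2 (0.986) and CKAP2 (0.986). Their transcripts had GC contents of 37.8 to 45.7%, and that of PPAT was 38.1%. These values are a description over libraries that share groups.

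The fourth comparison was between the co-cultured and the lone control. No gene of the 10 was called by edgeR, and 0 of all 16768 genes were (0%). At an unadjusted p under 0.05 there was 1 of the 10, ADSL at log2 0.34 ± 0.16, beside 3.22% of all genes. DESeq2 called none of either. The difference between the co-culture responses of knockout and control, the interaction, was called for none of the 10 by edgeR and for 1.8% of all genes, 1.51% higher and 0.286% lower. At an unadjusted p under 0.05 there were 4, beside 18.7% of all genes. They were PPAT at log2 -1.17 ± 0.47, PAICS at -1.05 ± 0.46, GMPS at -0.86 ± 0.35 and ADSL at -0.73 ± 0.22. DESeq2 called none of the 10, beside 5.79% of the genes it tested. Without co-cultured knockout R3 those 4 genes were called, beside 21.3% of all genes.

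Around the 10 genes, 45 others were taken as 6 lists for the supply of PRPP, the supply of formyl groups, the AMP branch, salvage and breakdown, nucleotide kinases and regulators, and 43 were tested. In the lone comparison of knockout with control 12 were called higher and 14 lower, where 28% and 28.6% of all genes were. Between the co-cultures 14 were higher and 12 lower, where 24.1% and 25.3% of all genes were. These shares lie near the background. Within the knockout, 5 were called higher in co-culture and none lower, where 5.97% and 5.4% of all genes were. None was called between the control groups.

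PRPP supply held the genes of the synthetases PRPS1 and PRPS2 and of their associated proteins PRPSAP1 and PRPSAP2. In the lone comparison 3 of 4 were higher and none lower, with a median log2 of 0.74, against 0.09 over all genes. PRPS1 had 65.4, 67.5 and 73.6 CPM in the lone control and 128, 129 and 110 CPM in the lone knockout (log2 0.83 ± 0.12, edgeR adjusted p = 6.67e-05). PRPSAP2 was at log2 0.66 ± 0.15 (edgeR adjusted p = 0.00236). In co-culture 2 of 4 were higher, PRPS1 at 0.48 ± 0.12 and PRPSAP2 at 0.45 ± 0.15.

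Of the 9 formyl supply genes, which make and use folate one-carbon units, 2 were higher and 3 lower in the lone knockout. SHMT1, which moves a carbon from serine to folate in the cytosol, had 139.5, 170 and 199 CPM in the lone control and 57.4, 71.1 and 69.8 CPM in the lone knockout (log2 -1.36 ± 0.17, edgeR adjusted p = 2.03e-05). MTHFD1L, which releases formate from mitochondria, was at log2 -0.76 ± 0.13 (edgeR adjusted p = 2.26e-04). In co-culture 3 were higher and 3 lower, with SHMT1 at -0.95 ± 0.17 and MTHFD1L at -0.85 ± 0.13.

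The AMP branch list held 5 genes, of which 4 were tested, and 1 was higher and 1 lower in the knockout, alone and in co-culture. AMPD3, an AMP deaminase that returns AMP to IMP, had 5.89, 6.47 and 5.08 CPM in the lone control and 30.7, 29.6 and 27.6 CPM in the lone knockout. It stood higher still in the co-cultured knockout, at 52.3, 54.3 and 55.1 CPM, with 6.0, 5.82 and 5.22 CPM in the co-cultured control. The 4 groups were separate except for the 2 control groups. The difference was log2 2.33 ± 0.15 alone, 3.25 ± 0.15 in co-culture and 0.88 ± 0.14 within the knockout (edgeR adjusted p = 4.19e-08, 3.56e-09 and 0.0017). AMPD2, another AMP deaminase, was at log2 -1.18 ± 0.18 alone (edgeR adjusted p = 1.20e-04) and at -0.77 ± 0.18 in co-culture.

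Salvage and breakdown took 14 genes, of which 5 were higher and 5 lower alone and 6 and 4 in co-culture. MTAP, which salvages adenine from methylthioadenosine and is 1 of the deleted genes named above, was at log2 -6.66 ± 0.30 alone (edgeR adjusted p = 2.75e-09), with 79.5, 55.3 and 43.8 CPM in the lone control and 0.550, 0.647 and 0.548 CPM in the lone knockout. GMPR, which converts GMP back to IMP, was also lower, with 26.3, 33.3 and 36.6 CPM in the lone control and 1.52, 1.39 and 1.58 CPM in the lone knockout (log2 -4.42 ± 0.22, edgeR adjusted p = 6.13e-09). The co-cultures differed by log2 -6.93 ± 0.29 and -3.96 ± 0.21. Within the knockout neither was called, while 2 of the 14 were higher in co-culture.

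Among 8 nucleotide kinases, 1 was higher and 3 lower alone, and 2 and 2 in co-culture. AK3, the matrix enzyme that uses GTP, was at 1.25 ± 0.31 alone (edgeR adjusted p = 0.00431) and 0.89 ± 0.31 in co-culture.

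Regulators of the pathway numbered 5, of which 4 were tested, and 2 were lower in each comparison of knockout with control. MYC, a transcription factor known to drive purine synthesis genes, had 227, 263 and 281 CPM in the lone control and 175, 181 and 199 CPM in the lone knockout (log2 -0.47 ± 0.14, edgeR adjusted p = 0.0097). Its co-cultured groups had 226, 273 and 241 CPM and 156, 154 and 130 CPM (log2 -0.75 ± 0.14, edgeR adjusted p = 5.28e-04). Within the knockout it was at -0.33 ± 0.14 and not called (edgeR adjusted p = 0.122). MTOR, a growth-regulating kinase, was at -0.36 ± 0.14 alone (edgeR adjusted p = 0.0457) and -0.61 ± 0.14 in co-culture.

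**Figure D5:**
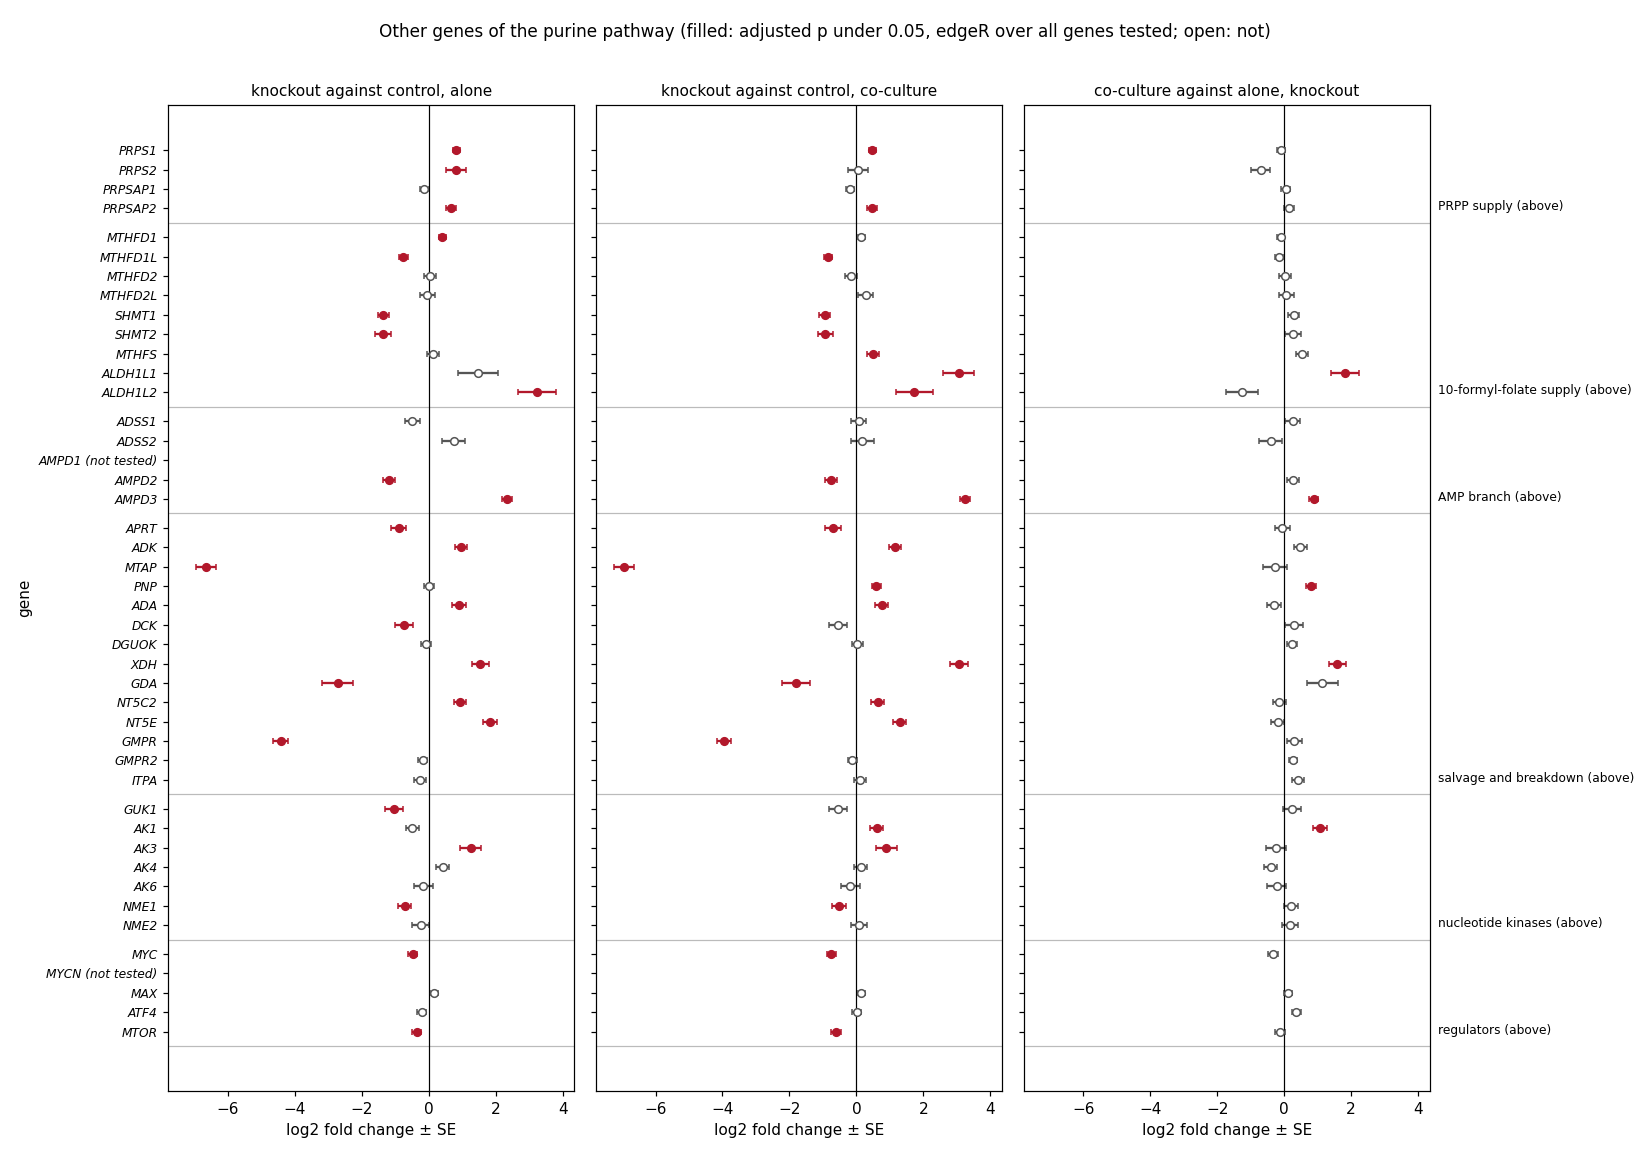
Fitted log2 fold change ± SE of the other genes of the 6 lists, less 1 that is not shown, in 3 comparisons. Filled points passed an adjusted p under 0.05, open points did not, and 2 genes were not tested. MTAP and GMPR lie farthest to the left in both comparisons of knockout with control, and in the right panel the 5 filled points are all higher in co-culture.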

How the data were processed

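The authors deposited 1 table of raw counts per Ensembl gene for the 12 libraries. Per the submitters' processing notes, FastQC, STAR 2.7.9a, featureCounts, R 4.2.1 and DESeq2 1.36.0 were used with GRCh38. The annotation release and the strand setting are not given in the sources used here. Per the labels, total RNA was made into libraries with a NEBNext Ultra RNA kit.

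Libraries were grouped by their labels, and no column lacked a sample. Genes were filtered with filterByExpr, scaled with TMM and fitted in 1 model of 4 group means with edgeR 4.0.16 in R 4.3.3 (robust quasi-likelihood), and p-values were adjusted by Benjamini-Hochberg over all 16768 genes tested. Levels are CPM, or CPM per kb of GENCODE 29 exons. A total of 14921371 to 35723762 counts per library limits the precision of low genes such as PPAT, at 105 to 372 counts. Alternatives were other scalings, DESeq2 1.42.0, no filter, fewer groups, a replicate block, GC offsets and leaving out each library.

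The members and lists were chosen with earlier results of these data known. All 10 members were named, and in each list the 2 genes with the smallest p in the lone comparison, with MTAP, MYC and TYMS; 1 of these genes is not reported here. The 5 genes most like PPAT were taken by Pearson r. The fit was tested on simulated data: fold changes were recovered, but most 2-fold changes were not called at this number of libraries. There, few genes were changed and all shared 1 spread, while here 56.6% of all genes were called between the lone groups. The simulation therefore does not give the power of the tests reported here. A member that was not called may still differ. Annotated pseudogene copies of the members held 0 to 65 counts each over all libraries.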

Additional observations from a re-analysis of the deposited data

Results flagged for a closer look

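Among TYMS and the genes of the pathway and marker lists, the co-culture response differed between knockout and control in 5, by the interaction term of the edgeR fit, which called 1.8% of all genes. AMPD3, the AMP deaminase, differed by log2 0.91 ± 0.20 SE (edgeR adjusted p = 0.0366), being higher in co-culture in all 3 knockout libraries. MKI67, a proliferation marker, differed by log2 -1.41 ± 0.32 (edgeR adjusted p = 0.0419), and CCNB1, a mitotic cyclin, by log2 -1.17 ± 0.21 (edgeR adjusted p = 0.0112). Both were lower in all 3 co-cultured knockout libraries than in any lone knockout library. TYMS, the targeted gene, differed by log2 -0.89 ± 0.15 (edgeR adjusted p = 0.0107), being lower in all 3 co-cultured knockout libraries. CD14, a blood marker, differed by log2 2.75 ± 0.48 (edgeR adjusted p = 0.0111), being higher in all 3 of them. In the control its mean was lower in co-culture, at 2.63 against 4.76 CPM alone, though not called. The co-cultured knockout and control were not called apart (log2 0.30 ± 0.32, edgeR adjusted p = 0.463).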

How the results depend on the processing

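Between the lone groups, 5 to 7 members were called under every alternative, beside 26.4% (no filter) to 63.6% (GC offsets) of the genes tested. They were not the same members throughout. With GC offsets IMPDH1 and HPRT1 were no longer called, and PPAT was. For co-culture against alone in the knockout, where none was called, library sizes alone gave 1, beside 8.47% of all genes. DESeq2, no filter and GC offsets gave 3 each, beside 20%, 8.75% and 30%. Leaving out 1 library gave 0 to 4, beside 3.13% to 33.4%. For knockout against control in co-culture, GC offsets gave 9, beside 63.3% of all genes, and library sizes alone 7, beside 48.5%. There, leaving out 1 library gave 5 to 7, beside 41.7% to 52.2%, the most without co-cultured knockout R3. For the interaction, no filter gave 1, beside 3.52% of all genes, and GC offsets 1, beside 9.27%. Leaving out 1 library gave 0 to 4, beside 0.695% to 21.3%. Without length scaling the IMPDH1 share was 26.6, 25.3, 38.0 and 35.2% for the control alone and in co-culture and the knockout alone and in co-culture.

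The replicate numbers did not run alike in all groups: deviations of same-numbered libraries correlated between -0.89 and 0.787. Outside the co-cultured knockout, r was 0.404 to 0.787 for R1 and 0.637 to 0.761 for R3. Between it and the other groups, r was -0.566 to -0.462 for R1 and -0.89 to -0.788 for R3. For R2, r ran from -0.487 to 0.258 over all groups. What the numbers stand for was not tested. A replicate block called 5 members between the lone groups, losing ADSL, beside 54.1% of all genes, and changed no other member count. The replicate block with GC offsets gave 3 for co-culture in the knockout, 9 for the co-cultures and 1 for the interaction. Of all genes it called 25.6%, 61.5% and 6.02% there.

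Values that changed sign were not called in either fit, and the cause was not tested. Between the lone groups, PPAT was 0.031 with library sizes alone (leaving out 1 library, -0.31 to 0.19), and GMPS -0.17 with GC offsets and -0.17 with the block added. Within the knockout, IMPDH1 was -0.12 with GC offsets, with or without the block (-0.056 to 0.28). Within the control, PFAS was 0.040 with library sizes alone, 0.091 with GC offsets and 0.092 with the block added (-0.087 to 0.074), and IMPDH2 0.028 with library sizes (-0.21 to 0.076). With GC offsets, then with the block added, ATIC was -0.0092 and -0.0036 (-0.052 to 0.15) and IMPDH1 0.048 and 0.049. PAICS ran from -0.055 to 0.32 and GMPS from -0.038 to 0.32 on leaving out 1 library. In the interaction, GART was 0.25 and 0.24 and IMPDH1 -0.17 and -0.17 with GC offsets, without and with the block. HPRT1 was 0.041 with DESeq2 size factors, 0.041 with DESeq2, 0.063 with no filter, 0.52 with GC offsets and 0.54 with the block added (-0.15 to 0.10).

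Library sizes alone gave a median over all genes of 0.24 between the lone groups, where TMM gave 0.09, and of -0.11 for the interaction, where TMM gave 0.01. Over all genes, calls for co-culture in the knockout were 1907 in the reported fit, 5031 with GC offsets (4300 with the block added), 664 with only the 2 groups compared, 1080 with the replicate block, 3347 with DESeq2, 3340 with no filter, and 536 to 5680 on leaving out 1 library, the highest without co-cultured knockout R3. Interaction calls were 301, and 1554 with GC offsets (1009 with the block added), 179 with the replicate block, 877 with DESeq2, 1342 with no filter, and 119 to 3623 on leaving out 1 library, again highest without R3.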
